A study of Mus musculus with 9 samples.

Results

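Members of gene families that speed up the removal of messenger RNAs were followed in mouse embryonic stem cells after 30 min of GSK3 inhibition. The members were taken by symbol from the deposited count table and comprise the AU-rich element binding genes Zfp36, Zfp36l1 and Zfp36l2 and the deadenylation-promoting genes Btg1, Btg2, Btg3, Tob1 and Tob2. Positions are those of RefSeq on GRCm38 (mm10). Zfp36 lies at chr7:28376784-28379228, Zfp36l1 at chr12:80107760-80113013 and Zfp36l2 at chr17:84183924-84187947, all on the minus strand. Btg1 lies at chr10:96617001-96622813 and Tob1 at chr11:94209842-94215495 on the plus strand, and Btg2 at chr1:134074865-134079155, Btg3 at chr16:78359860-78377181 and Tob2 at chr15:81848270-81858326 on the minus strand. They are 8 of 52264 rows, and all 8 were among the 15366 genes expressed highly enough to be tested.

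Most mRNAs are degraded after their poly(A) tail has been shortened, chiefly by the CCR4-NOT complex. Zfp36 proteins, also called tristetraprolin and its relatives, bind AU-rich stretches in the 3′ UTR through paired zinc fingers and bring CCR4-NOT to the transcript. Btg and Tob proteins bind the catalytic subunits of the same complex, and Tob proteins also bind the cytoplasmic poly(A) binding protein. Several of these genes are known as early response genes whose own transcripts are short-lived.

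The 9 RNA sequencing libraries were all made from cells labelled as lacking β-catenin, with 3 libraries for each of 3 groups: untreated controls, cells given BRD0705, which is a GSK3α-selective inhibitor, and cells given CHIR, which inhibits GSK3α and GSK3β. All groups share the same culture history on feeder-treated dishes, with 3 µM CHIR, 1 µM PD03 (a MEK inhibitor) and 40 ng/ml LIF for expansion and N2B27 overnight before the 30 min treatment. The inhibitor doses of that treatment are not given in the labels, nor is it said whether replicates were separate cultures, so p-values measure only the spread between these libraries. Whether the null line is 1 clone is not stated either.

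Depth was 17359422 to 20773337 counts per library. The gene named in the genotype, Ctnnb1, had 303 to 371 CPM (counts scaled to a common library size) over the 9 libraries. Gene-level counts carry no exon positions, so this checks neither the label nor the deletion. All 8 embryonic stem cell markers examined (among them Pou5f1, Sox2 and Nanog) were expressed. Their summed level was 3938 to 3998 CPM in control, 3822 to 3996 CPM with BRD0705 and 4066 to 4212 CPM with CHIR. Of the 8, 2 had a higher mean than control with BRD0705 and 4 with CHIR. All 12 fibroblast markers examined (among them Col1a1, Col1a2 and Col3a1) were also expressed and none was at 0. Their summed level was 2277 to 2735 CPM in control, 2894 to 2958 CPM with BRD0705 and 2569 to 3091 CPM with CHIR, and all 12 had a higher mean than control under each inhibitor. The 4 blood (macrophage) markers examined had a summed level of 37.0 to 53.5 CPM. RNA with markers of stem cells and of fibroblasts was thus in every library. In such bulk samples fewer cells of a type and less RNA per cell cannot be told apart.

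The letters that the Zfp36 proteins are known to recognise are shown first, since they occur in the transcripts of the Zfp36 genes themselves. In the canonical transcripts of GENCODE vM39, the 3′ UTR of each of Zfp36, Zfp36l1 and Zfp36l2 holds the nonamer TTATTTATT, 1 time each. The stretches below run 5′ to 3′ in DNA letters, with the nonamer in capitals for the Zfp36 genes and the heptamer TATTTAT in capitals for Btg2 and Tob2.

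Zfp36: gacgactTTATTTATTgtattaag
Zfp36l1: tgttggaTTATTTATTttagaaat
Zfp36l2: atttaacTTATTTATTatcttgtg
Btg2: tgaagagcTATTTATacatgtttt
Tob2: cacctgctTATTTATgtacgaggt

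The capitals begin at base 589 of the 774 of the 3′ UTR of Zfp36, at base 1404 of 1835 in Zfp36l1, at base 821 of 2049 in Zfp36l2, at base 103 of 2199 in Btg2 and at base 852 of 4127 in Tob2. Motifs were searched on the sense strand only, and each nonamer contains the heptamer, which in turn contains the pentamer ATTTA. Among the 3′ UTRs of tested genes within 20% of the same length, the nonamer was found in 4.53% for Zfp36, 8.99% for Zfp36l1 and 9.79% for Zfp36l2. The heptamer occurred 3 times in each of the Zfp36 genes, as often or more in 1.10%, 4.06% and 4.59% of 3′ UTRs of similar length. In the other family it occurred 3 times in Btg3 (7.92% of 3′ UTRs of similar length had as many), 1 time each in Btg2 and Tob2 (41.8% and 58.0%) and was not found in Btg1 or Tob1. The Pumilio motif TGTANATA was found 2 times in Btg1 and 1 time in Btg3, and not in the other 6 members. Of 3′ UTRs of similar length, 20.2% had as many as Btg1 and 45.0% as many as Btg3. These matches describe the letters only.

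Of the 8 members, 7 were matched by symbol in the RefSeq promoter table of build GRCm38.p6; Zfp36l2 was not. The 250 bases before the start were searched on both strands for the cyclic AMP response element (CRE), spelled TGACGTCA, for the AP-1 site, spelled TGANTCA, for the E-box, spelled CACGTG, for the TCF/LEF site, spelled CTTTGAT, for the GC box, spelled GGGCGG, and the CArG box, the site of serum response factor. Zfp36 held a CArG box ending at position -49 from the start, as 1.47% of 32851 promoters hold one, and Btg2 held a CRE ending at position -159, as 1.55% do. Zfp36l1 held 1 AP-1 match (6.75% of promoters). No match to E-box or TCF/LEF letters was found in the 7 members, which 6.02% and 3.21% of promoters hold. The promoters of Zfp36 and Btg2 are shown with the CArG box and the CRE in capitals, and that of Tob2, described below, for comparison, which holds 2 GC boxes (32.7% of promoters hold any) and none of the other motifs named here.

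Zfp36 promoter, chr7:28379229-28379478, minus strand: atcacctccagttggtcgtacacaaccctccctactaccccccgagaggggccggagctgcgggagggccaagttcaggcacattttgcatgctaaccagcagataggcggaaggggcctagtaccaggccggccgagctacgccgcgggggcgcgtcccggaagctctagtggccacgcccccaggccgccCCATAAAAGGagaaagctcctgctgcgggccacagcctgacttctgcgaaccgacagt
Btg2 promoter, chr1:134079156-134079405, minus strand: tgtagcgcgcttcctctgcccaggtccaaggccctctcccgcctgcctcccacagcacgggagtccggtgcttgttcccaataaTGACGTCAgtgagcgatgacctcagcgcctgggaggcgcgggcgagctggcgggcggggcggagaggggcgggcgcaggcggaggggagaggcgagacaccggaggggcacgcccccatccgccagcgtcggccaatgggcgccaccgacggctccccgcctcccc
Tob2 promoter, chr15:81858327-81858576, minus strand: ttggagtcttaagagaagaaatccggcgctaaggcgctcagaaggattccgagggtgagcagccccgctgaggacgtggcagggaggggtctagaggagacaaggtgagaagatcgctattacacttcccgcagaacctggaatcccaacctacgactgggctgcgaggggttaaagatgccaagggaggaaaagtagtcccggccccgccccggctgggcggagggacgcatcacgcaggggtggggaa

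Levels were compared between genes as TPM, which scales counts by transcript length and library total. Zfp36l1 was the most abundant member, at 174 ± 13.8 TPM (SD, n = 9 libraries) and above 94.4% of the tested genes. Zfp36l2 followed at 63.8 ± 7.37 TPM and Tob1 at 58.7 ± 3.62 TPM (SD, n = 9 each). The ranges of Zfp36l2 and Tob1 overlapped, and Zfp36l2 was the higher in 6 of 9 libraries.

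Btg2 stood at 26.3 ± 2.43 TPM, Btg1 at 22.3 ± 1.58 TPM, Zfp36 at 21.4 ± 2.95 TPM and Btg3 at 21.2 ± 2.16 TPM (SD, n = 9 each). Each of these overlapped with its neighbour in the order. Tob2 was the least abundant, at 15.99 ± 1.55 TPM (SD, n = 9), and still above 57.3% of the tested genes. It was below Btg3 in all 9 libraries, although their ranges over the libraries overlapped. When lengths of all annotated exons were used in place of the canonical transcript, an alternative chosen after seeing the data, Zfp36l1, Zfp36l2 and Tob1 kept the first 3 places, while Btg2 moved from place 4 to 6 and Btg3 from 7 to 8. Zfp36l1 made up 68.5 ± 1.27% of the summed TPM of the 3 Zfp36 genes in control (SD, n = 3 in every group), 67.6 ± 0.777% after BRD0705 and 65.4 ± 0.739% after CHIR.

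**Figure D1:**
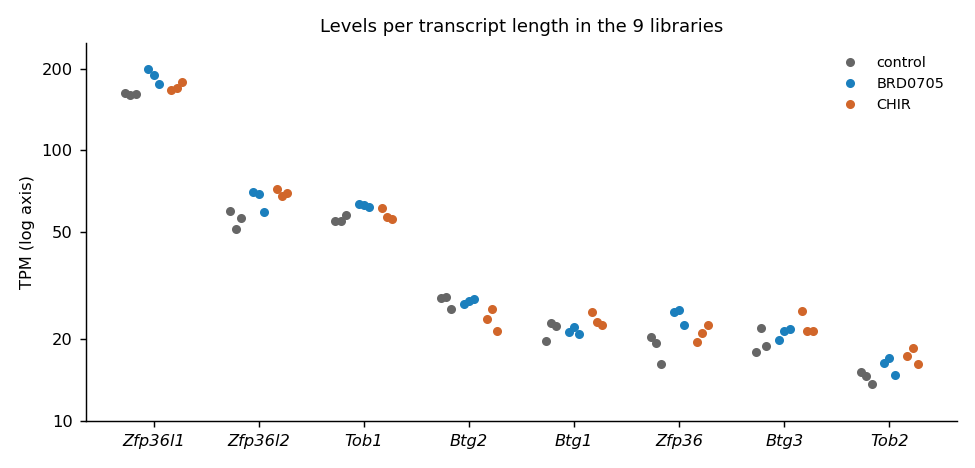
TPM (length-scaled level, log axis) of the 8 genes, ordered by mean level, with 1 point per library coloured by group. Zfp36l1 lies far above the rest, at 161 to 201 TPM, and the 5 genes on the right lie between 13.7 and 28.7 TPM.

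Other genes of these families, Zfp36l3 and Btg4, were near 0, with 1 to 11 counts and 0 to 2 counts per library, and were not tested. The row of the pseudogene Zfp36l1-ps had 0 counts in every library. Of the members whose overlapping gene is among the counts, Btg3 is the least certain. Its canonical transcript shares 1328 of 3941 bases with exons of Cxadr on the opposite strand. Cxadr had 3553 counts in all against 6212 for Btg3, and use of strand in the counting is not stated. Cxadr itself differed by -0.03 ± 0.08 between CHIR and control in log2 (SE), with an edgeR adjusted p of 0.900. It differed by -0.18 ± 0.08 between BRD0705 and control (SE; edgeR adjusted p 0.251). Between BRD0705 and CHIR it differed by -0.16 ± 0.08 (SE; edgeR adjusted p 0.240). The genes opposite Zfp36, Zfp36l2 and Tob2 had 16, 2 and 0 counts in all 9 libraries. The gene opposite Btg2, Gm31974, shares 120 bases with its canonical transcript and is absent from the deposited counts, so its level is not known.

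The comparison of CHIR with control asks which of these regulators changed when both GSK3 enzymes were inhibited. Zfp36l2 and Tob2 rose, 1.27-fold and 1.22-fold, and no member fell past the threshold (an adjusted p under 0.05 in edgeR's quasi-likelihood test over all genes). These are 2 of 8 members, where 6.3% of all tested genes passed. An unadjusted p under 0.05 was reached by 6 of 8 members, against 20.5% of all genes. The median log2 fold change of the members was 0.17, beside -0.01 for all tested genes, and 7 of 8 estimates were above 0.

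Zfp36l2, which binds AU-rich elements and is known for its part in oocyte and blood cell maturation, was at 97.9, 79.7 and 90.2 CPM in control replicates 1 to 3. It was at 115, 109 and 116 CPM in the CHIR replicates. All CHIR libraries lay above all controls, and the CHIR libraries lay closer together than the controls. The estimated log2 change was 0.35 ± 0.07 (SE), with an edgeR adjusted p of 0.00932 and a 95% interval of 0.19 to 0.50. Without control replicate 2, the lowest library, it was 0.28 and missed the threshold (edgeR adjusted p 0.0534), against a range of 4.2e-06 to 0.133 over all alternatives.

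Tob2, an antiproliferative protein that links poly(A) binding protein to the deadenylase, was at 38.4, 35.5 and 33.9 CPM in the controls. It was at 43.4, 46.1 and 41.9 CPM with CHIR, again with no overlap between the groups. The estimated log2 change was 0.29 ± 0.07 (SE), with an edgeR adjusted p of 0.0168 and a 95% interval of 0.14 to 0.43. The call rested on several libraries: the edgeR adjusted p was 0.0565 without control replicate 2, 0.0818 without control replicate 3 and 0.0819 without CHIR replicate 2. With the fibroblast marker score as a covariate, neither gene passed: the log2 fold changes were 0.30 for Zfp36l2 (edgeR adjusted p 0.133) and 0.21 for Tob2 (edgeR adjusted p 0.273). In that fit 240 of all 15366 tested genes passed, against 968 as reported, so the loss is not particular to these genes. Over the 9 libraries the marker score had a Pearson correlation of 0.61 with Zfp36l2 and 0.64 with Tob2, and of 0.22 and 0.53 after group means were removed.

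Btg3 and Btg2 came nearest among the rest and pointed in opposite directions. Btg3, an antiproliferative member of its family, had 30.8, 36.1 and 31.6 CPM in the controls and 42.9, 36.01 and 37.8 CPM under CHIR. The groups overlapped, since control replicate 2 lay above CHIR replicate 2, and the estimated log2 change was 0.25 ± 0.08 (SE), with an edgeR adjusted p of 0.0662. Btg3 passed without control replicate 2, at 0.33 (edgeR adjusted p 0.0342), and with no low-count filter, at 0.25 (edgeR adjusted p 0.0196). Btg2, known as a p53-responsive and early response gene, was the one member with a lower estimate. It had 33.9, 32.6 and 30.4 CPM in the controls and 27.8, 30.2 and 26.1 CPM under CHIR, narrowly without overlap, and differed by -0.20 ± 0.07 in log2 (SE), with an edgeR adjusted p of 0.0932.

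Btg1, which slows proliferation and is highly expressed in resting lymphocytes, had a mean of 46.2 ± 2.81 CPM among controls and of 51.4 ± 2.57 CPM under CHIR (SD over 3 libraries; edgeR adjusted p 0.160). Zfp36 was at 22.5 ± 2.78 and 25.8 ± 2.51 CPM (edgeR adjusted p 0.238), Zfp36l1 at 221 ± 7.05 and 239 ± 14.7 CPM (edgeR adjusted p 0.302) and Tob1 at 54.9 ± 2.12 and 58.2 ± 2.57 CPM (edgeR adjusted p 0.464), all SD with n = 3. The values of CHIR and control did not overlap in 5 of 8 members, beside 25.1% of all tested genes.

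**Figure D2:**
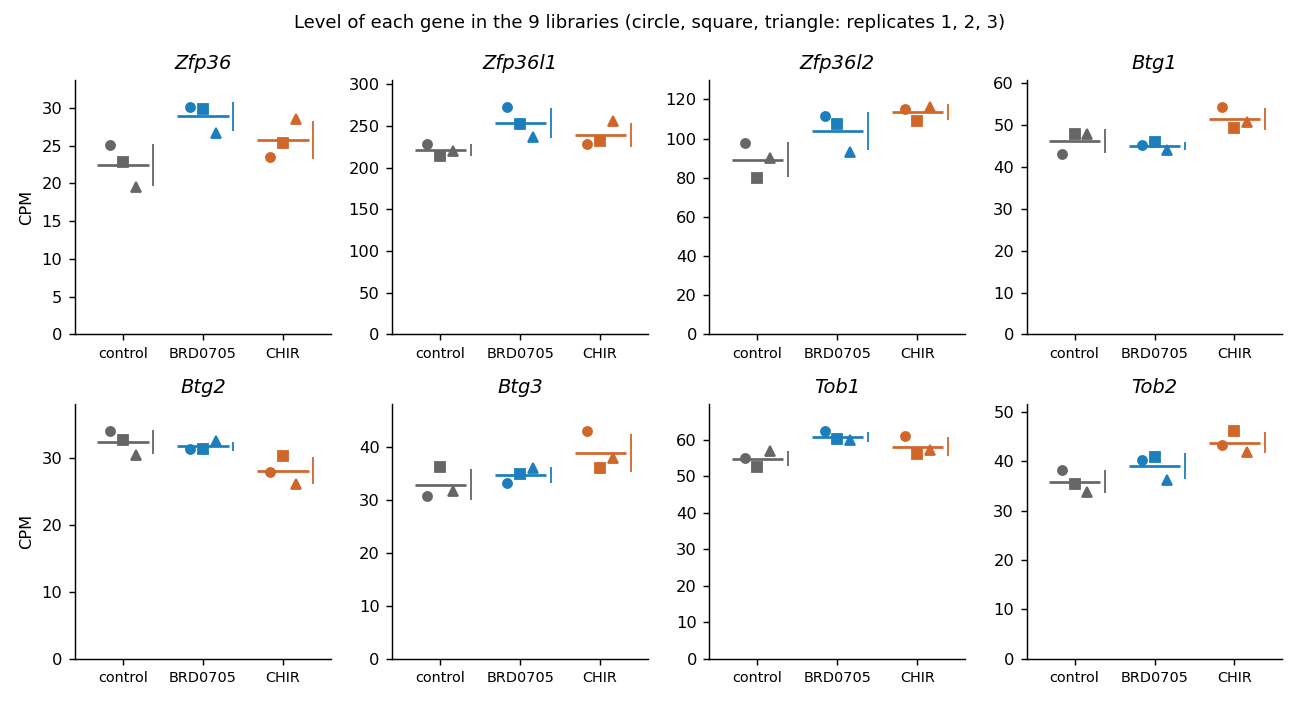
CPM of each gene in the 9 libraries, with axes that start at 0, a horizontal line at the group mean and a vertical line for 1 SD on either side of it (n = 3). Zfp36l2 and Tob2 lie above all controls in all 3 CHIR libraries, and Zfp36 in all 3 BRD0705 libraries.

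BRD0705 was compared with control to ask the same of GSK3α inhibition. No member was past the threshold by the same edgeR test, where 1.22% of all tested genes were. This comparison uses the same 3 control libraries as that of CHIR. An unadjusted p under 0.05 was reached by 4 of 8 members, against 15.9% of all genes. DESeq2 passed 2 members, Zfp36 and Zfp36l1, both higher. It also passed more of all genes, 489 of 15366 against 188 in edgeR. The median log2 fold change of the members was 0.13, beside -0.0038 for all tested genes. BRD0705 and control were fully separated in 3 members, Zfp36, Zfp36l1 and Tob1, beside 20.2% of all genes.

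Zfp36, the founding member, known for destabilising Tnf mRNA, was nearest to the threshold. It was at 25.1, 22.8 and 19.6 CPM in control and 30.1, 29.8 and 26.7 CPM with BRD0705, so that the lowest treated library lay above the highest control. The estimated log2 change was 0.36 ± 0.09 (SE), with an edgeR adjusted p of 0.0589 and a 95% interval of 0.17 to 0.55. Over the 22 alternatives the estimate ranged from 0.28 to 0.45 and passed in 8, with edgeR, limma or DESeq2 adjusted p values of 0.0013 to 0.332. Leaving out control replicate 1, BRD0705 replicate 3, CHIR replicate 1 or CHIR replicate 3 brought it past the threshold, with edgeR adjusted p values of 0.0288, 0.0389, 0.0437 and 0.046.

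The related Zfp36l1, needed for embryonic development in mice, was at 228, 214 and 219.7 CPM in control and 273, 252 and 236 CPM with BRD0705, without overlap. The estimated log2 change was 0.20 ± 0.06 (SE), with an edgeR adjusted p of 0.106. Zfp36l2 was at 112, 107 and 93.2 CPM with BRD0705, the last below control replicate 1, and the estimated log2 change was 0.22 ± 0.08 (SE), with an edgeR adjusted p of 0.154. In all 3 Zfp36 genes, BRD0705 replicate 3 was the lowest of its group, and without it all 3 passed, with edgeR adjusted p values of 0.0389, 0.0401 and 0.042. Leaving out the lowest treated library raises such estimates by construction. In that fit 305 of 15591 genes passed, against 188 of 15366 as reported. No member passed without BRD0705 replicate 1 or without BRD0705 replicate 2. The summed TPM of the 3 Zfp36 genes was 231 to 244 in control, 257 to 296 with BRD0705 and 258 to 271 with CHIR.

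Of the Btg and Tob genes, Tob1 was at 55.2, 52.7 and 56.9 CPM in control and 62.4, 60.3 and 59.98 CPM with BRD0705, with a log2 fold change of 0.15 ± 0.06 (SE; edgeR adjusted p 0.215). Tob2 was at 40.2, 40.8 and 36.1 CPM with BRD0705 (log2 change 0.12 ± 0.07, SE; edgeR adjusted p 0.420). Btg1, Btg2 and Btg3 had estimates of -0.04, -0.03 and 0.08 on the log2 scale, with edgeR adjusted p values of 0.832, 0.903 and 0.685. Their 95% intervals ran from -0.17 to 0.09, from -0.17 to 0.12 and from -0.08 to 0.24. The summed TPM of the 5 Btg and Tob genes was 136 to 143 in control, 148 to 151 with BRD0705 and 137 to 153 with CHIR.

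**Figure D3:**
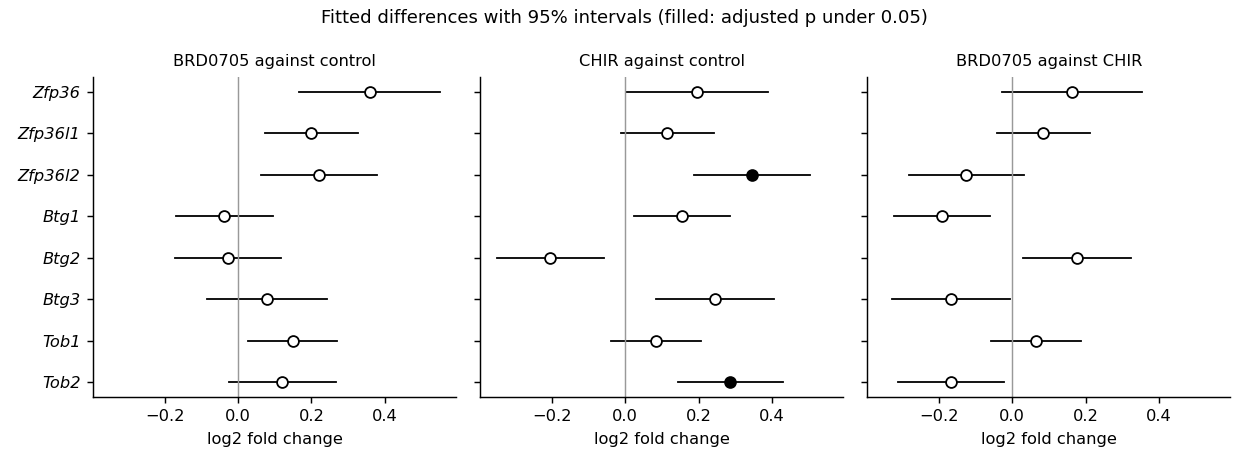
Log2 fold changes (points) with 95% intervals (lines) for the 8 genes in the 3 comparisons; filled points passed an adjusted p of 0.05. Only Zfp36l2 and Tob2 in CHIR against control are filled, and the largest estimate that did not pass is 0.36 for Zfp36 with BRD0705.

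The inhibitors were also compared directly. No member passed in edgeR's quasi-likelihood test, where 7.77% of all tested genes did, and DESeq2 passed none either. An unadjusted p under 0.05 was reached by 4 of 8 members, against 22.5% of all genes. Zfp36l2 differed by -0.13 on the log2 scale, BRD0705 minus CHIR, with a 95% interval of -0.28 to 0.03 (edgeR adjusted p 0.339). Tob2 differed by -0.17, with an interval of -0.31 to -0.02 (edgeR adjusted p 0.155). The rises of these genes with CHIR were thus not shown to differ from their values with BRD0705. Tob2 did pass after a correction for GC content and length, at -0.24 (edgeR adjusted p 0.0280).

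Zfp36 differed by 0.16 in the other direction, with an interval of -0.03 to 0.35 (edgeR adjusted p 0.302). The lowest adjusted p belonged to Btg1, at 45.1, 45.9 and 44.02 CPM with BRD0705 and 54.2, 49.3 and 50.6 CPM with CHIR. It differed by -0.19 ± 0.06 (SE; edgeR adjusted p 0.0700), and by -0.20 without control replicate 1 (edgeR adjusted p 0.0419), a fit in which 15610 genes were tested. With the correction for GC content and length, Btg1 differed by -0.14 (edgeR adjusted p 0.138). Btg3 went from -0.17 (edgeR adjusted p 0.207) to -0.09 (edgeR adjusted p 0.514). Gene deviations correlated with GC content (Spearman) at 0.05 to 0.26 in BRD0705 libraries, -0.12 to -0.05 with CHIR and -0.29 to 0.19 in control. Its bearing on these genes was not tested. Btg2 was higher with BRD0705 by 0.18 ± 0.07 (SE; edgeR adjusted p 0.138). BRD0705 and CHIR values did not overlap in 3 members, Btg1, Btg2 and Tob2, beside 26.7% of all tested genes.

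The genes whose log2 CPM followed a called member most closely over the 9 libraries were looked up among 9563 genes of at least moderate expression. For Zfp36l2 they were Plp2, Gtsf1l and Fhip1b, with Pearson correlations of 0.96, 0.96 and 0.95. For Tob2 they were Zfp703, Ubp1 and Slc19a2, with 0.97, 0.96 and 0.95. The points share libraries, group differences and depth, so these values are a description. Among the members, Zfp36 and Zfp36l1 had the highest correlation over the 9 libraries, at 0.88, and Btg1 and Btg2 the lowest, at -0.82. After the group means were removed these were 0.69 and -0.54, while Zfp36l1 and Zfp36l2 were highest at 0.73 and Zfp36l1 and Btg3 lowest at -0.58.

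The proteins that these regulators work with were described from lists of the decay machinery. Of the 11 tested subunits of CCR4-NOT, none passed in CHIR or BRD0705 against control by edgeR. An unadjusted edgeR p under 0.05 was reached by 2 in each comparison, beside 20.5% of all genes with CHIR and 15.9% with BRD0705. The log2 fold changes of the 11 subunits lay between -0.13 and 0.16 with CHIR and between -0.21 and 0.13 with BRD0705. None of 6 other deadenylases and poly(A) binding proteins, 14 exosome and Ski genes or 8 kinase, phosphatase and 14-3-3 genes that act on Zfp36 passed in either comparison by edgeR. Under some alternatives 1 gene passed: among the other deadenylases and poly(A) binding proteins in either comparison, among the CCR4-NOT subunits with BRD0705 and among the kinase, phosphatase and 14-3-3 genes with CHIR. In the reported fit an unadjusted edgeR p under 0.05 was reached with CHIR by 1 of the 6, 0 of the 14 and 1 of the 8 genes. With BRD0705 it was reached by 2, 1 and 1 of them in the same order. Over 6 lists with 72 tested genes, 5 passed with CHIR (6.94%, near the 6.3% of all genes) and 0 with BRD0705.

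The 5 genes lay in decapping and in other 3′ UTR binding proteins. With CHIR, 3 of 18 decapping and 5′ to 3′ decay genes passed. Dcp1a, an activator of the decapping enzyme, rose to 122 ± 7.96 CPM against 101 ± 1.10 CPM in control (SD over 3 libraries), a log2 difference of 0.27 (edgeR adjusted p 0.0166). Edc4, a scaffold of the decapping complex, rose to 161 ± 3.71 CPM against 139.5 ± 7.45 CPM in control (SD over 3 libraries), a log2 difference of 0.21 (edgeR adjusted p 0.0362). Dcp1b, the relative of Dcp1a, fell to 3.12 ± 0.204 CPM against 5.39 ± 1.11 CPM in control (SD over 3 libraries), a log2 difference of -0.79 (edgeR adjusted p 0.00855) and was lower than with BRD0705, where it stood at 5.64 ± 0.511 CPM (log2 fold change, BRD0705 minus CHIR, 0.86; edgeR adjusted p 0.00421). Of 15 other 3′ UTR binding proteins, Rc3h1, which encodes Roquin, rose by 0.31 and Nanos1 fell by 0.41 on the log2 scale (edgeR adjusted p 0.0176 and 0.0410). The fit with the fibroblast covariate passed none of these 5 in CHIR against control, with edgeR adjusted p values of 0.0654 for Rc3h1 to 0.290 for Edc4. It passed 240 of all 15366 tested genes, against 968 as reported. Their log2 differences in that fit were 0.38 for Rc3h1, 0.31 for Dcp1a, -0.48 for Nanos1, -0.63 for Dcp1b and 0.17 for Edc4. Dcp1b was also lost without control replicate 3, Dcp1a without control replicate 3 or CHIR replicate 2 or 3, Edc4 without control replicate 2 or any 1 CHIR library, and Rc3h1 without control replicate 1 or CHIR replicate 2 or 3. Nanos1 passed in 3 of 9 fits that left out 1 library: those without control replicate 3, BRD0705 replicate 3 or CHIR replicate 1. Nanos1 was also lost with DESeq2 and when only the compared groups were fitted, and Edc4 when library size alone was used for scaling.

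**Figure D4:**
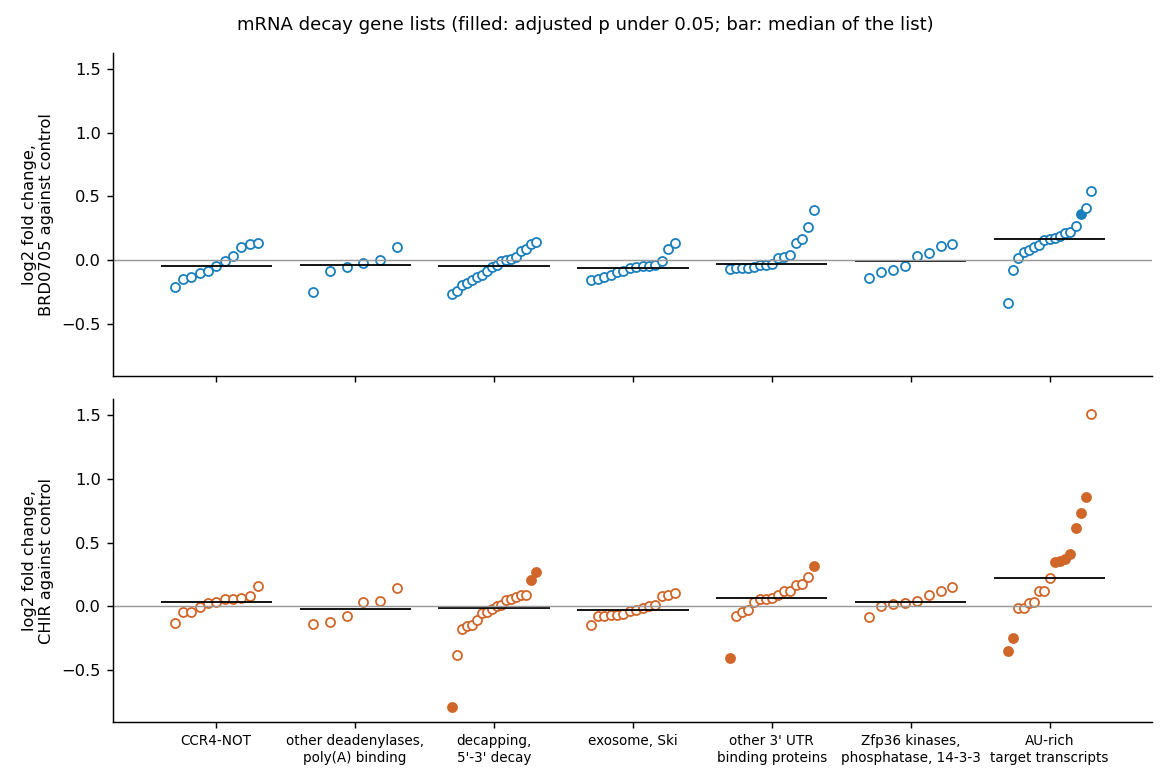
Log2 fold changes against control of the tested genes of 7 lists, BRD0705 above and CHIR below, 1 point per gene; filled points passed an adjusted p of 0.05 and the bar is the median of the list. The median is 0.22 for the AU-rich target transcripts with CHIR, with 9 filled points, and between -0.03 and 0.07 for the other lists.

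Transcripts described as targets of the Zfp36 family formed the last list. Of 17 tested, 7 rose and 2 fell with CHIR, which is 52.9% beside 6.3% of all genes, and the median log2 fold change was 0.22. The median of all genes was -0.01. With BRD0705, 1 of 17 rose and none fell, which is 5.88% beside 1.22% of all genes, and the median was 0.17 beside -0.0038 for all genes. Ptgs2, the inducible cyclooxygenase gene, rose to 85.9 ± 8.16 CPM with CHIR against 56.05 ± 3.78 CPM in control (SD over 3 libraries), a log2 difference of 0.62 (edgeR adjusted p 0.000124). Lif, the cytokine gene, rose to 9.74 ± 0.877 CPM against 5.87 ± 0.916 CPM in control (SD over 3 libraries), a log2 difference of 0.73 (edgeR adjusted p 0.00231). Ier3, an early response gene, rose to 118 ± 6.86 CPM against 90.7 ± 1.67 CPM in control (SD over 3 libraries), a log2 difference of 0.37 (edgeR adjusted p 0.000825). Cited2, a transcriptional coactivator gene, fell to 84.03 ± 1.23 CPM against 107 ± 1.58 CPM in control (SD over 3 libraries), a log2 difference of -0.35 (edgeR adjusted p 0.00114).

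Ptgs2 and Ier3 were lower with BRD0705 than with CHIR, and Cited2 and Myc higher. Against control, Myc fell with CHIR, at -0.25 in log2 (edgeR adjusted p 0.0476). With BRD0705 its estimate against control was 0.22 and did not pass (edgeR adjusted p 0.127). The log2 differences, BRD0705 minus CHIR, were -0.44 for Ptgs2, -0.31 for Ier3, 0.43 for Cited2 and 0.47 for Myc, with edgeR adjusted p values of 0.00178, 0.00343, 0.000161 and 0.000571. In that comparison 6 of 17 targets passed, 2 higher and 4 lower, which is 35.3% beside 7.77% of all genes. The single target past the threshold in BRD0705 against control was Plk3, a kinase gene. It stood at 38.3 ± 2.49 CPM with BRD0705 against 29.8 ± 2.27 CPM in control (SD over 3 libraries). The log2 difference was 0.36 (edgeR adjusted p 0.0185). Plk3 also rose with CHIR against control, by 0.35 in log2 (edgeR adjusted p 0.00701). Its direct difference, BRD0705 minus CHIR, was 0.02 (edgeR adjusted p 0.918). In BRD0705 against control, Plk3 missed the threshold without control replicate 2, control replicate 3 or BRD0705 replicate 1. It also missed it with the fibroblast covariate, at 0.28 (edgeR adjusted p 0.414). In that fit 0 of all tested genes passed in BRD0705 against control, so the loss is not particular to Plk3. With that covariate 3 targets passed in CHIR against control: Ptgs2 at 0.54, Ier3 at 0.33 and Cited2 at -0.38 in log2. Of all 15366 tested genes, 240 passed in that fit, against 968 as reported. Lif, at 0.66, missed the threshold there (edgeR adjusted p 0.0567). The list was chosen from general knowledge of AU-rich transcripts, but with earlier results of these data known. Its shares beside those of all genes are therefore a description only, and several of its genes are also early response genes. Whether decay or synthesis of these mRNAs differed was not measured. The labels give poly(A) RNA as the molecule but name a ribosomal RNA depletion reagent in the protocol, so whether mRNAs with short tails were counted in full is not known.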

How the data were processed

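Raw read counts per gene symbol for 9 libraries were used as deposited by the authors, as whole numbers. RSEM, DESeq2 and the build mm10 are named in the submitters' processing notes, without roles. Strand use and the annotation are not given in the sources used here. If RSEM made the counts, reads shared between similar genes were divided by its model. The authors also deposited a normalized signal. In each library it equalled the counts divided by 1 size factor, to within 9.9e-10.

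The tests used edgeR 4.0.16 (R 4.3.3), with TMM scaling, the filterByExpr rule at a minimum count of 10 and quasi-likelihood F tests in 1 fit of 3 group means over 15366 genes, with Benjamini-Hochberg adjustment and 2-sided p-values. SE came from the fold change and F. TPM and GC used GENCODE vM39 (GRCm39), in which 98.0% of tested genes matched. The script was tested on simulated data.

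Members and lists were chosen with earlier results of these data known. Named genes were the members, up to 4 called genes per list and comparison, and the 3 closest correlates of each called member. Pairs of libraries within a group differed by more than sampling noise, with chi-square over its degrees of freedom at 3.37 to 7.89.

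Alternatives were the replicate block, DESeq2 1.42.0, limma 3.58.1 with voom or on log2(normalized value + 1 or + 0.1), other scalings and filters, only the compared groups, leaving out each library, a correction for GC content and length (5-degree splines), that correction with the block, and a fibroblast covariate, the mean log2 CPM (prior count 2) of 12 markers.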

Additional observations from a re-analysis of the deposited data

How the results depend on the processing

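Of the log2 fold changes of the members over 22 alternatives and 3 comparisons, 501 kept their direction and their side of the threshold, 18 came past it, 6 dropped below it and 3 turned sign. Those that turned were near 0, all in BRD0705 against control: Btg2 at 0.0119 without control replicate 1 (-0.0614 to 0.0119 when 1 library was left out), and Btg1 at 0.0037 with the GC and length correction and 0.0033 with that correction and the replicate block. The cause was not tested.

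The number of members past the threshold in BRD0705 against control was 0 as reported, 2 with DESeq2, 3 with no low-count filter, and 1 each with library size only and with a mean CPM of at least 1. It was 0 to 3 when 1 library was left out. In CHIR against control it was 2 as reported, 0 with the fibroblast covariate, 3 with no low-count filter (with Btg3) and 1 to 2 when 1 library was left out. Without control replicate 2 the 1 member was Btg3, and neither Zfp36l2 nor Tob2 passed. In the direct comparison it was 0 as reported, 1 with the GC and length correction, 1 with that correction and the replicate block, and 0 to 1 when 1 library was left out.

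Over all tested genes, 188 of 15366 passed in BRD0705 against control, 489 of 15366 with DESeq2 and 609 of 26762 with no low-count filter. With library size only 226 of 15366 passed, and with a mean CPM of at least 1 248 of 13628. The number was 114 with the GC and length correction, 115 with that correction and the replicate block and 0 with the fibroblast covariate. It was 21 to 305 when 1 library was left out. It moved by over 1.5 times without any 1 control, any 1 BRD0705 library or CHIR replicate 2. In CHIR against control 968 passed, 240 with the fibroblast covariate and 514 to 1070 when 1 library was left out, the lowest without control replicate 2 or 3 or CHIR replicate 1 or 2. In the direct comparison 1194 passed, and 616 to 1313 when 1 library was left out, the lowest without BRD0705 replicate 1 or 2 or CHIR replicate 1 or 2.

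The labels do not say that equal replicate numbers share a culture or day, and same-numbered libraries did not deviate together, with correlations of -0.0897 to 0.0802. The replicate block changed no call of a member, and passed 1 of the 6 other deadenylases and poly(A) binding proteins in BRD0705 against control, where 0 passed without it. With it, 222, 973 and 1177 genes passed in the 3 comparisons. The counts of called list genes moved by over 1.5 times in 47 of 462 cases. In CHIR against control the decapping list ranged from 0 to 4 around 3, the other 3′ UTR binding proteins from 0 to 2 around 2, and the AU-rich targets from 3 to 9 around 9. In BRD0705 against control the targets ranged from 0 to 3 around 1.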
